A study of Mus musculus with 80 samples.

Results

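The 41 genes described here are splicing factors and the kinases that phosphorylate them, a set of 41 of the 38827 genes measured in subcutaneous white fat of BXD mice. They were taken by name: the gene symbol of the annotated array table had to equal a listed member, and where several features shared a symbol, the feature with the highest mean stood for it. All 41 names were found. The list was drawn up with earlier results of these data known, counted here as including the change of every gene with diet and the correlation of that change with that of Lep, the gene of the fat hormone leptin. Changes with diet and all relations to Lep are therefore given as a description, without a test of the list. Where a member is called for these, the word only marks an adjusted p under 0.05.

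Affymetrix arrays were hybridised with RNA of male mice aged 29 weeks, and each array carried a pool of about 5 animals of 1 strain on 1 diet. High fat pools came from mice fed Harlan 06414 from week 8 on, and chow pools from mice kept on Harlan 2018 for life. All mice had been fasted overnight, anaesthetised and perfused before the fat was snap-frozen. The BXD strains are inbred lines whose genomes are fixed mosaics of the 2 parents, C57BL/6J and DBA/2J. There were 38 high fat arrays and 42 chow arrays, and 38 strains (36 BXD strains and both parents) had 1 array on each diet. BXD56, BXD60, BXD92a and BXD96 had chow arrays only. Since a strain had 1 pool per diet, strains served as the replicates, and p-values reflect variation among strains rather than among animals.

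Pre-mRNA splicing is carried out by the spliceosome, which assembles on each intron from small nuclear ribonucleoproteins such as U1 and U2. SR proteins, named for their arginine- and serine-rich domains, bind exons and help U1 and the U2AF dimer to choose splice sites. CLK kinases phosphorylate those domains and release SR proteins from nuclear speckles, where many splicing factors are stored, and several of these genes regulate their own transcripts by retaining introns or including exons that trigger decay. Leptin is secreted by fat cells, and its transcript is known to increase as fat stores grow.

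Values are scale units: every array had a mean of 8 and an SD of 2 over its features, so 1 unit is 0.5 of an array's SD, and a value shows where a gene stands among all features of its array. No fold changes are given, and levels are not compared between genes. The tissue carried its labelled identity, with the mean of 17 fat cell genes between 13.25 and 14.18 on high fat and between 13.39 and 14.25 on chow. Skeletal muscle genes varied widely between pools, with a list mean of 8.52 to 13.57 on high fat and of 8.43 to 14.20 on chow. Of the arrays, the BXD63 high fat pool stood apart for Lep, at 11.63 units against a median of 14.57 over the 38 high fat pools. Results that rest on the BXD63 pool are given with and without it. For members, the C57BL/6J high fat pool was often at the edge of the high fat range. It held the lowest high fat value of Clk3, Srsf2, Srsf9, Luc7l, Snrnp70, Rsrp1, Safb2, Akap8l, U2af2 and Hnrnpa1. The highest values of Tra2a, Srrm1 and Nono on high fat were also in that C57BL/6J pool.

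Start-site windows of 4 members are shown because the changes of these 4 genes with diet ran most nearly opposite to that of Lep among the 41, and because Safb2 and Safb are neighbours that start in opposite directions. The sequences are from RefSeq (GRCm38.p6), 250 bases before to 50 after the start, 5′ to 3′ on the gene's strand. Capitals mark the CCAAT box (CCAAT) and the GC box (GGGCGG), searched on both strands. Safb2 lies at chr17:56584536-56584835 on the minus strand, Safb at chr17:56584732-56585031 on the plus strand, Rsrp1 at chr4:134923375-134923674 on the plus strand and Akap8l at chr17:32350528-32350827 on the minus strand.
Safb2: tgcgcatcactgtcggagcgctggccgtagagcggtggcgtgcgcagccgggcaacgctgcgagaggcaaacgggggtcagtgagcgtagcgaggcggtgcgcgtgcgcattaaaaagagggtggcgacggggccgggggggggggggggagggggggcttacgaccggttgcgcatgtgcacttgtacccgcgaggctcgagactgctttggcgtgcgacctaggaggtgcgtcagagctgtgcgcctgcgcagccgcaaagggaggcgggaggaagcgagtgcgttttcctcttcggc
Safb: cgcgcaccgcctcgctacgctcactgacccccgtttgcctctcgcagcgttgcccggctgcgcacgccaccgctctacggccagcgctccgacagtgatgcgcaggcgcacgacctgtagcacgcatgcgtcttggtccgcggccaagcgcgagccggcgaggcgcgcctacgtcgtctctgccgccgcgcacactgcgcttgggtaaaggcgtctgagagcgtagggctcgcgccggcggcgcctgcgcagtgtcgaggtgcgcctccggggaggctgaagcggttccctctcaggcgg
Rsrp1: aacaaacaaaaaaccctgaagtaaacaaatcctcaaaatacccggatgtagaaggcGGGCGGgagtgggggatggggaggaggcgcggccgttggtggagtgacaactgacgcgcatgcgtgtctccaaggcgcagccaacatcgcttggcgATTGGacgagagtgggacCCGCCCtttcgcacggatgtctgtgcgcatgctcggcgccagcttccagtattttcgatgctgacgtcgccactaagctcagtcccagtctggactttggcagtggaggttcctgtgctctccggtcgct
Akap8l: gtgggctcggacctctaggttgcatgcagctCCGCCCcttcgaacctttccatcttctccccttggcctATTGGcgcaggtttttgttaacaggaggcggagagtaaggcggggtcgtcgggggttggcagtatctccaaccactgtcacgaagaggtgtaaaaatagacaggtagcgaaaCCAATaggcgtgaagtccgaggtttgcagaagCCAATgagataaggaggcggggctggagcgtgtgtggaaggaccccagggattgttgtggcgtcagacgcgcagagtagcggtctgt

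Safb2 and Safb encode closely related scaffold attachment factors on opposite strands. The starts used for their windows lie 397 bases apart, and the windows share 104 bases. The annotated Safb2 gene reaches position 56584675, upstream of the start used (56584585), so the distance holds for that start only. Neither motif was found in these 2 windows, whereas the Rsrp1 window held 1 CCAAT box and 2 GC boxes and the Akap8l window 3 CCAAT boxes and 1 GC box. RefSeq windows were matched for 37 members (44 windows), with none for Clk1, Luc7l, Pnisr and U2af2. GC boxes were found in 61.4% of the members' windows, against 35.7% of all 32851 windows, and CCAAT boxes in 50% against 37.4%. The members' windows had a median GC content of 63.7%, against 52.7% for all windows, and a median of 30 CpG dinucleotides, against 7. A match is a description of the letters and not evidence of binding.

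Most of the 41 genes stood lower on high fat than on chow. The median member changed by -0.10 scale units and 31 of 41 (75.6%) were below 0, whereas the median of all genes was 0.03 and 42.9% were below 0. At an adjusted p under 0.05 (limma's moderated test across all genes, strain as a block), 30 members were called, against 61.2% of all genes. Of these 26 were lower and 4 higher, against a background of 24.5% lower and 36.7% higher. As the list was drawn up with these changes known, nothing is read from the difference, nor from the counts called within each role below. The mean over the 41 genes was 11.06 ± 0.11 on high fat and 11.15 ± 0.13 on chow (SD, 38 strains), with a change of -0.09 ± 0.15 that was below 0 in 27 strains. Fewer cells of a type and less RNA per cell cannot be told apart in such bulk samples.

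**Figure D1:**
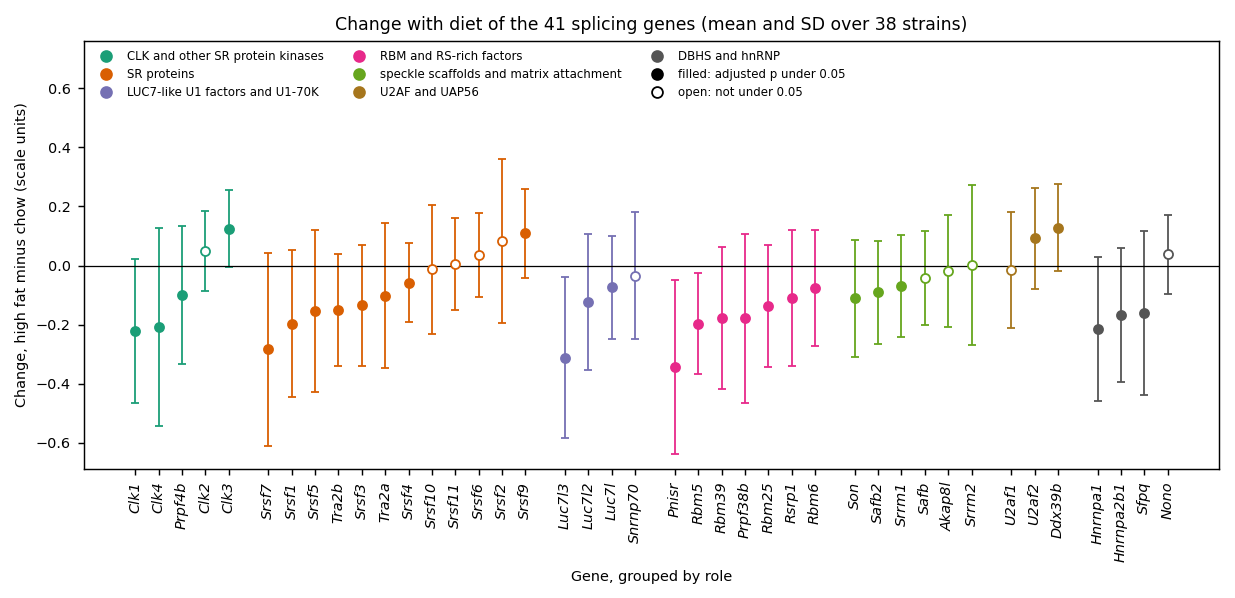
Mean change in expression (high fat minus chow, scale units) of each of the 41 genes, grouped by role, with bars for the SD over 38 strains. Points run between -0.34 (Pnisr) and 0.13 (Ddx39b), and most filled points, which mark an adjusted p under 0.05, lie below 0.

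Among the kinases, Clk1 and Clk4 were lower on high fat and Clk3 was higher. Clk1 had a lowest, median and highest value of 10.70, 11.21 and 11.62 on high fat, against 10.81, 11.44 and 11.75 on chow. It was lower in 32 of 38 strains, by 0.22 ± 0.24 on average, with overlapping ranges. Clk3 ran the other way, at 10.90, 11.16 and 11.36 on high fat, against 10.78, 11.04 and 11.20 on chow, and was higher in 32 strains. Clk4, a close relative of Clk1, changed by -0.21 ± 0.33 and was lower in 30 strains. Prpf4b, a kinase of the tri-snRNP, changed by -0.10 ± 0.23 and was lower in 28. Clk2 differed by 0.05 ± 0.14, higher in 23 strains, and was not called.

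The 12 SR and SR-like proteins included 7 that were called lower (background 24.5%) and 1 that was called higher (background 36.7%). Srsf7, which binds purine-rich RNA and also takes part in mRNA export, had the largest decrease, at 9.49, 9.97 and 10.62 on high fat, against 9.47, 10.30 and 10.94 on chow. It was lower in 31 strains, by 0.28 ± 0.33 on average. Srsf1, the founding SR protein, changed by -0.20 ± 0.25, and Srsf5, Tra2b, Srsf3, Tra2a and Srsf4 by -0.15 to -0.06. Srsf9 was the exception, higher in 29 strains by 0.11 ± 0.15. Changes of Srsf2, Srsf6, Srsf10 and Srsf11 lay between -0.01 and 0.08 and were not called.

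Luc7l3, a counterpart of the yeast U1 protein Luc7, was lower in 34 of 38 strains. It stood at 10.11, 10.61 and 11.01 on high fat, against 10.19, 10.97 and 11.31 on chow, a change of -0.31 ± 0.27. Its relatives Luc7l2 (-0.12 ± 0.23) and Luc7l (-0.07 ± 0.17) changed less. Snrnp70, the U1-70K protein that SR proteins contact at the 5′ splice site, changed by -0.03 ± 0.21 and was not called.

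All 7 RBM and RS-rich factors were called lower (background 24.5%). Pnisr, a serine- and arginine-rich nuclear protein, had the largest decrease of the 41 genes, at 10.20, 10.66 and 11.13 on high fat, against 10.45, 11.03 and 11.40 on chow. It was lower in 34 strains, by 0.34 ± 0.29 on average. The RNA-binding proteins Rbm5, Rbm39 and Rbm25 changed by -0.20 ± 0.17, -0.18 ± 0.24 and -0.14 ± 0.21. Rbm5 was lower in 32 strains and Rbm39 in 32, whereas Rbm25 was lower in 28. Prpf38b changed by -0.18 ± 0.29, Rsrp1 by -0.11 ± 0.23 and Rbm6 by -0.08 ± 0.20.

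Speckle scaffolds and matrix attachment factors moved little on average. Son, a speckle core protein, Srrm1, an SR-related coactivator, and Safb2 were called lower, by 0.11 ± 0.20, 0.07 ± 0.17 and 0.09 ± 0.17. Srrm2, the other speckle core protein, changed by 0.00 ± 0.27, Safb by -0.04 ± 0.16 and Akap8l, a nuclear A-kinase anchoring protein, by -0.02 ± 0.19. The SD of Akap8l and Srrm2 across strains exceeded their mean change many times over.

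Both genes called in the U2AF group were higher on high fat (background 36.7%). Ddx39b, the helicase UAP56 of spliceosome assembly and mRNA export, stood at 11.63, 11.91 and 12.09 on high fat, against 11.46, 11.76 and 11.98 on chow, and was higher in 32 strains. U2af2, the large U2AF subunit that binds the polypyrimidine tract, was higher in 28 strains by 0.09 ± 0.17. U2af1, the small subunit that reads the 3′ splice site, was lower in 19 strains and higher in 19.

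Of the remaining 4, Hnrnpa1, an hnRNP that often opposes SR proteins, stood at 11.66, 11.94 and 12.46 on high fat, against 11.65, 12.17 and 12.63 on chow. It was lower in 32 strains, by 0.22 ± 0.24 on average. Hnrnpa1 has many processed copies in the genome, and probes shared with them cannot be separated here. Hnrnpa2b1 changed by -0.17 ± 0.23 and Sfpq, a paraspeckle protein, by -0.16 ± 0.28. Nono, the usual partner of Sfpq, differed by 0.04 ± 0.13 and was not called.

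**Figure D2:**
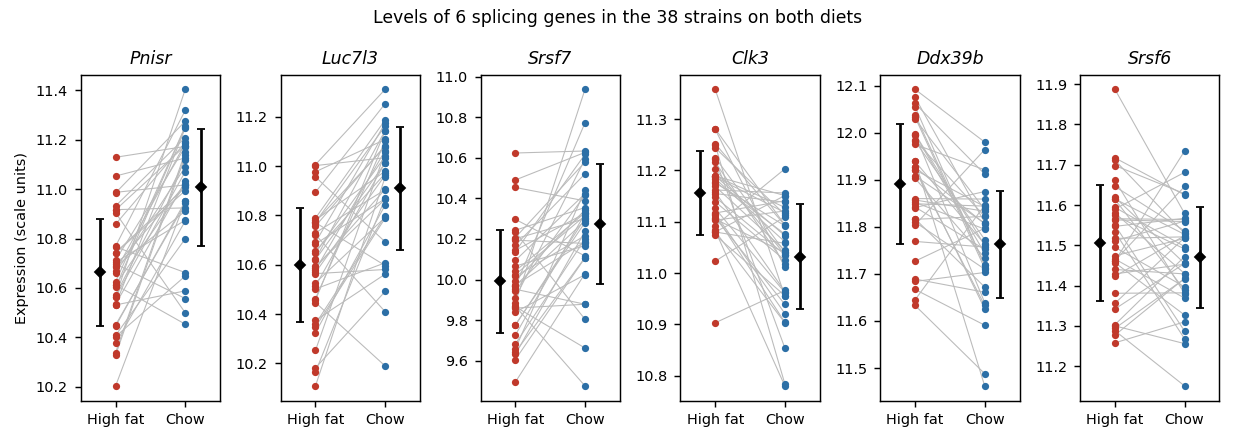
Expression (scale units) of 6 genes in the 38 strains, with the high fat pool left and the chow pool right, lines joining a strain's pools, and diamonds with bars for the mean and SD. Pnisr and Luc7l3 were lower on high fat in 34 strains each and Clk3 and Ddx39b higher in 32 each, while Srsf6 was lower in 16 and higher in 22.

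Among a further 106 splicing genes outside the list, 40 were higher and 23 lower on high fat, shares close to the background of 36.7% higher and 24.5% lower, and their median change of 0.03 was that of all genes. U1 and Sm proteins had 7 of 11 higher and 1 lower, and Snrpa, a protein of the U1 particle, was higher in 37 strains by 0.25 ± 0.11. Subunits of the SF3 complex, which recognises the branch point, had 8 of 12 higher and 1 lower, with Sf3a2 higher in 37 strains by 0.27 ± 0.15. The hnRNP list leaned the other way, with 11 of 23 lower and 6 higher. Its largest decreases were those of Hnrnpr (-0.34 ± 0.18, lower in 36 strains) and Hnrnpu (-0.30 ± 0.23, lower in 35), while Hnrnpul1 was higher in 36. Among 16 tissue splicing regulators, Mbnl3 of the muscleblind family was higher in 35 strains, by 0.82 ± 0.80.

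With the diet means removed, the share of a gene's variance lying between strains (the intraclass correlation) had a median of 18.2%, against 14.6% for all genes, and ran between -4.78% for Safb2 and 44.8% for Srsf6. Limma's moderated F test, adjusted over all genes, called 2 members, against a background of 10.4% of genes. Srsf6 (adjusted p = 0.0377) had strain means of 11.22 in BXD73 to 11.73 in BXD83, and its high fat and chow values correlated at r = 0.45 across strains. Rbm25 (adjusted p = 0.0489, 39.2% between strains) had strain means of 11.09 in BXD87 to 11.67 in BXD49. Both lay near the threshold. When each strain was left out in turn, Srsf6 was called in 30 of 38 fits (adjusted p of the F test 0.0226 to 0.0869). It was not called without BXD44, BXD65, BXD69, BXD73, BXD83, BXD84, BXD85 or BXD89. Rbm25 was called in 12 of 38 fits (adjusted p 0.0307 to 0.0872). The count of members called was 0 without BXD44, among others, and 6 without BXD95. Both calls were also lost with the parents left out, and with B cell, muscle and keratinocyte gene means as covariates.

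The parents differed in 1 member at an adjusted p under 0.05. Tra2a, a sequence-specific splicing activator related to fly transformer-2, was higher in C57BL/6J than in DBA/2J by 0.53 ± 0.17 (SE, limma, adjusted p = 0.035). Its values in C57BL/6J were 11.82 on high fat and 11.35 on chow, both above the DBA/2J values of 10.98 on high fat and 11.12 on chow. At that threshold 4.61% of all genes were called higher in C57BL/6J and 7.08% lower, and no member was called lower. The call of Tra2a held in all 36 fits that left out 1 BXD strain and was lost with the tissue covariates. Those fits kept both parents, so they cannot show whether the call rests on the C57BL/6J high fat pool. That pool held the highest Tra2a value on high fat. On chow the parents lay closer, at 11.35 against 11.12, with an SD of 0.22 over the chow pools. Each parent had 1 pool per diet, so the residual spread came from all strains of the fit. Srsf2 (-0.50 ± 0.19, adjusted p = 0.0832) and Luc7l3 (0.49 ± 0.19, adjusted p = 0.0833) had the next largest differences and were not called.

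The changes of most pairs of the 41 genes were positively correlated across strains. Across 820 pairs of members, the correlation of their changes with diet had a median of 0.49, with 91.7% of pairs above 0 and 96 pairs at 0.8 or more. All points come from the same 38 pairs of arrays. Pairs of all genes were not correlated in this way, so whether the 41 vary together more than other genes was not tested. The closest pairs were Prpf4b with Rbm6 (r = 0.94), Clk4 with Pnisr (0.93) and Srsf3 with Tra2b (0.92). In strain means over both diets these pairs had r = 0.90, 0.93 and 0.96. The neighbours Safb and Safb2 had r = 0.89 for change, and the neighbours Rbm5 and Rbm6 on chromosome 9 had 0.82. Once the change of Lep was regressed out of each gene, the median pair stood at 0.39.

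**Figure D3:**
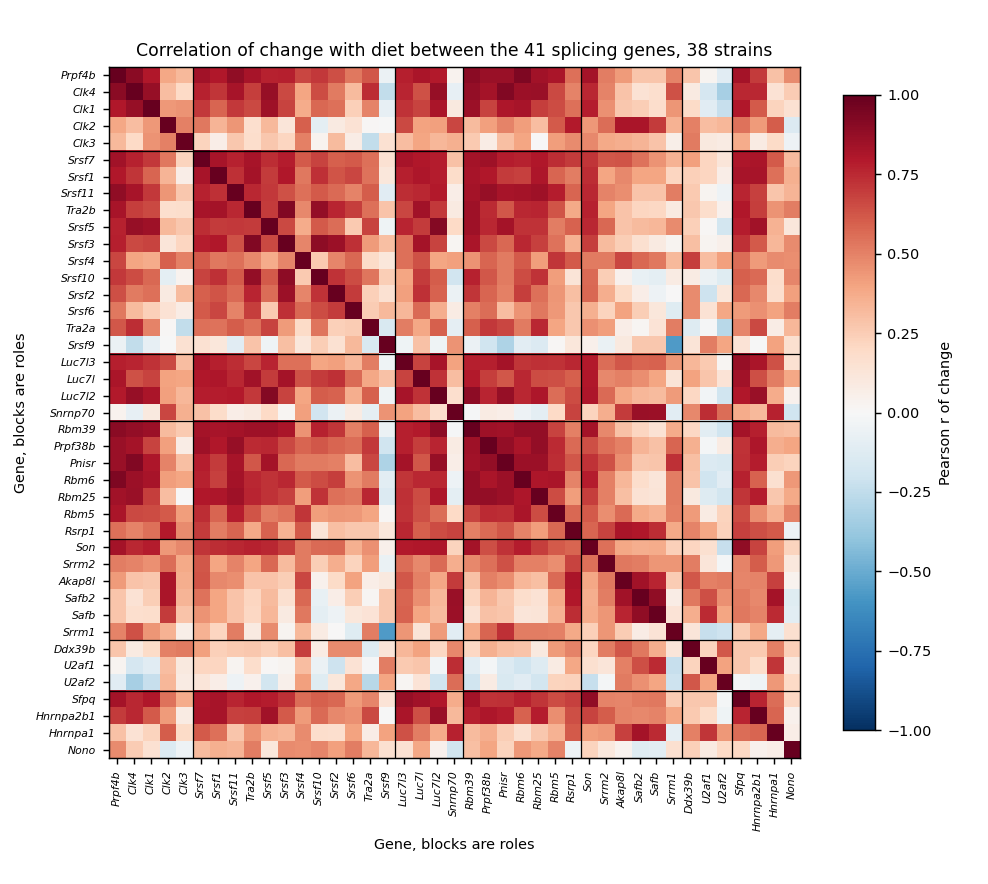
Pearson r between the changes with diet of every pair of the 41 genes over 38 strains (red positive, blue negative), with lines separating the roles. A large block around Srsf7, Prpf4b and the RBM factors runs together, Safb, Safb2, Akap8l, Clk2 and Snrnp70 form a second group of high values, and Srsf9 and U2af2 stand near 0 with most genes.

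Srsf7 lay closest to the rest, with r = 0.93 against the mean of the other 40 genes, followed by Prpf4b and Sfpq at 0.90 each. Srsf9 and U2af2, both higher on high fat, lay farthest at 0.08 each, and U2af1 stood at 0.20. The RBM and RS-rich factors were the most even role, with a median pair at 0.81 and none under 0.42. Strains differed in how the genes moved as a set: the mean change ran between -0.38 in BXD51, where 40 of 41 genes were lower on high fat, and 0.28 in BXD66, where 4 were. BXD61, at 0.27, had 2 genes lower.

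Lep was higher on high fat in 34 of 38 strains. It stood at 11.63, 14.57 and 15.08 on high fat (lowest, median and highest of 38), against 11.74, 13.90 and 14.86 on chow (of 42), with a mean change of 0.83 ± 0.93. The 4 strains with lower Lep on high fat were BXD63 (-2.34), BXD61 (-0.998), BXD69 (-0.33) and BXD68 (-0.02). In the same 4 strains the mean of the 41 genes was higher on high fat, by 0.09, 0.27, 0.09 and 0.02. It was also higher on high fat in 7 strains where Lep was higher, among them BXD66 (0.28, with a Lep change of 0.40) and BXD87 (0.11, with a Lep change of 1.455). In BXD55, where Lep changed most (2.77), 35 of the 41 genes were lower.

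The changes of most of the 41 genes ran opposite to that of Lep. They correlated with the change of Lep at a median r of -0.41, against 0.00 for all 38826 genes other than Lep, and 38 of 41 were below 0. The most opposed were Akap8l (r = -0.84, rho = -0.81) and Rsrp1 (r = -0.84, rho = -0.80), ranked 1 and 2 from the negative end of all genes. Safb2 (r = -0.81) was ranked 3, Safb (-0.78) 6, Clk2 (-0.76) 7 and Luc7l3 (-0.74) 13. Without BXD63 and BXD55, the 2 strains of most extreme Lep change, r was -0.82 for Akap8l, -0.85 for Rsrp1 and -0.77 for Safb2. It was -0.75 for Clk2 and moved nearer 0 for Safb and Luc7l3, to -0.66 each. In all, 19 members had a negative slope on Lep change at an adjusted p under 0.05, against a background of 5.67% of genes, and 0 a positive slope, against 10.7%. As this contrast informed the list, nothing is read from those counts. Nono (0.18), Srsf10 (0.03) and Srsf9 (0.00) were the 3 members not below 0.

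**Figure D4:**
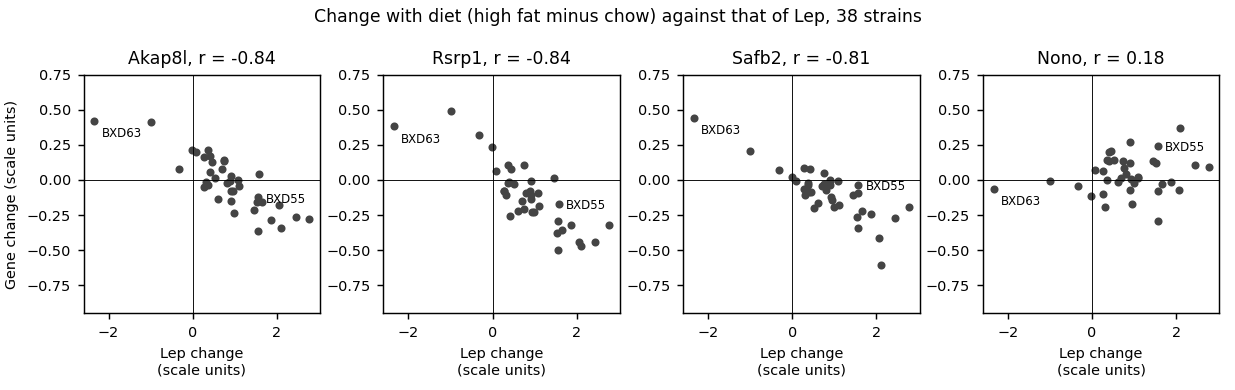
Change with diet (high fat minus chow, scale units) of Akap8l, Rsrp1, Safb2 and Nono against the change of Lep, 1 point per strain. The first 3 fall as Lep rises (r = -0.84, -0.84 and -0.81), BXD63 and BXD61 lie at the upper left of these panels, and Nono shows no such slope (r = 0.18).

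The changes of Akap8l, Safb and Clk2 ran closely opposite to that of Lep although their average change with diet was near 0. Akap8l stood at 10.41, 10.66 and 11.07 on high fat, against 10.38, 10.68 and 10.98 on chow, with changes of -0.36 in BXD51 to 0.42 in BXD63. Rsrp1 stood at 11.92, 12.33 and 12.79 on high fat, against 12.04, 12.42 and 12.87 on chow, with changes of -0.50 in BXD51 to 0.49 in BXD61. By contrast, Clk1, Clk4 and Rbm25, which were lower on average, had r of only -0.34, -0.35 and -0.34 with Lep. For the mean of the 41 genes r was -0.60 (rho = -0.53), and it stayed at -0.60 without BXD63 and BXD55.

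Relations were also taken between strain means, the average of a strain's high fat and chow pools. They come from the same arrays as the changes, and for Lep itself change and strain mean had r = -0.29 across strains, so they too are a description, without a test. The members with the most negative r were Safb2 (r = -0.64, rho = -0.53), U2af1 (r = -0.60, rho = -0.57), Safb (r = -0.59, rho = -0.54) and Akap8l (r = -0.57, rho = -0.53), followed by Hnrnpa1 and Rsrp1 at r = -0.47 each. At an adjusted p under 0.05 over all genes, these 6 members had a negative slope, against a background of 4.66%, and 0 a positive slope, against 7.73%. As the list was drawn up with relations to Lep known, nothing is read from those counts. The slope of Safb2 was -0.11 ± 0.02 units per unit of Lep (SE). Its strain means ran between 9.94 in BXD66, which had the highest mean Lep (14.87), and 10.36 in BXD62 (mean Lep 13.46).

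Without BXD63 and BXD43, whose mean Lep lay farthest from the median, r was -0.57 for Safb2, -0.56 for U2af1, -0.52 for Safb, -0.51 for Akap8l, -0.45 for Hnrnpa1 and -0.36 for Rsrp1. Safb2, U2af1, Safb and Akap8l stayed past the threshold in all 38 fits that left out 1 strain. Rsrp1 did not without BXD51, BXD62, BXD63, BXD66 or BXD68, nor Hnrnpa1 without BXD62, BXD63, BXD65 or BXD66. After quantile normalization neither Rsrp1 nor Hnrnpa1 was past the threshold. Such fits show only how the calls depend on single strains or on scaling. They are no support for the relation, since relations to Lep were known when the list was drawn up.

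**Figure D5:**
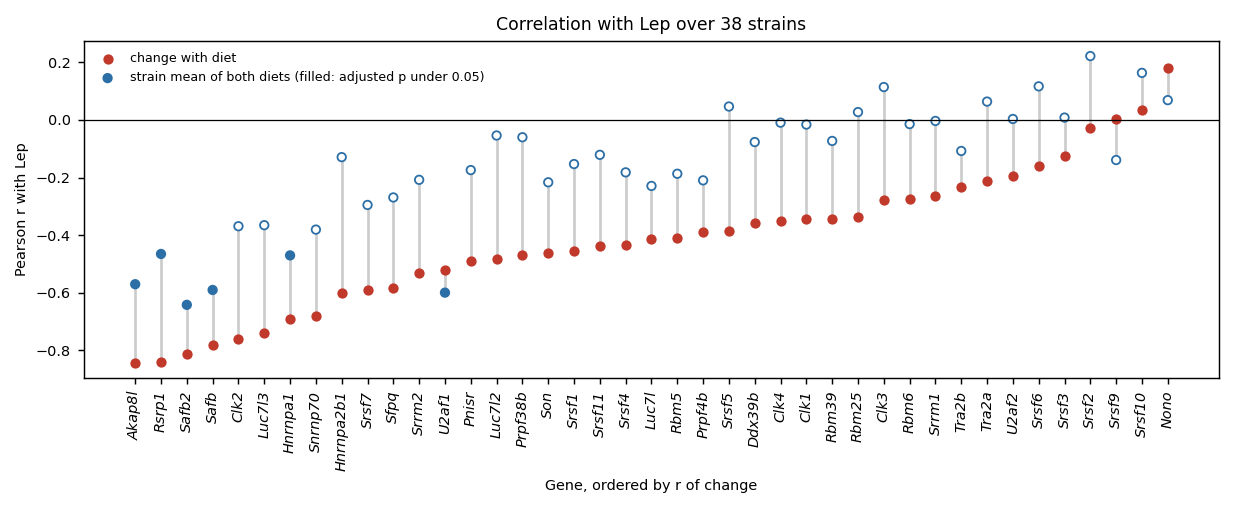
Pearson r of each of the 41 genes with Lep over 38 strains, for the change with diet (red) and for the strain mean of both diets (blue), ordered by the r of change. Akap8l, Rsrp1, Safb2 and Safb stand at the left with change r between -0.84 and -0.78, and the 6 filled blue points mark Akap8l, Rsrp1, Safb2, Safb, Hnrnpa1 and U2af1.

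The SR proteins and kinases were nearer 0 in this contrast. The median r of strain means was -0.05 over the 12 SR proteins, -0.02 over the 5 kinases and -0.13 over all 41 genes, against -0.02 over all genes. For the mean of the 41 genes it was -0.21 (rho = -0.20). U2af1 was the 1 member whose r was more negative for strain means (-0.60) than for change (-0.52), apart from Srsf9 and Nono, whose r of change was not below 0. Of the 106 other splicing genes, 5 were past the threshold with a positive slope (background 7.73%) and 3 with a negative one (background 4.66%). Neither share exceeded that of all genes. Hnrnph3 (r = -0.51) and the muscle-enriched SR kinase Srpk3 (-0.54) were among the negative ones, and Mbnl2 (0.69) was among the positive ones. For the change with diet, 17 of these 106 genes had a negative slope on Lep change (background 5.67%) and 6 a positive one (background 10.7%). The hnRNP list had 7 of 23 negative, and its mean change had r = 0.91 with that of the 41 genes. A negative relation to Lep change was thus not particular to the 41.

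Within each diet, r with Lep was below 0 for 30 of the 41 genes on high fat and for 39 on chow. On high fat, 9 members had a negative slope at an adjusted p under 0.05 (background 8.39%) and 0 a positive one (background 10.1%), led by Safb2 (r = -0.75) and Safb (-0.73). These high fat calls rest on BXD63, since 0 members were called without it. Its pool held the highest high fat value of Safb2 (10.53), Safb (10.32), Akap8l (11.07), U2af1 (10.81) and Hnrnpa1 (12.46). Without it, r on high fat was -0.53 for Safb2, -0.44 for Safb and -0.31 for Akap8l. On chow, 13 members had a negative slope (background 5.35%) and 0 a positive one (background 10.1%), led by Akap8l (r = -0.82), Safb2 (-0.72) and Rsrp1 (-0.72), and 20 were called without BXD87. These relations share their arrays with the change and the strain mean and are given as values only.

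Several other gene lists moved with the same strains. T cell markers were lower on high fat (11 of 13 called, list mean change -0.35 ± 0.66), and their list mean lay between 8.34 and 10.36 on high fat and between 8.65 and 10.87 on chow. Their change had r = -0.49 with that of Lep, 0.54 with that of Safb2 and 0.30 with the mean of the 41 genes. Macrophage markers were higher (15 of 16 called), with r = 0.54 against Lep and -0.53 against Safb2. Cytosolic ribosomal protein genes had 11 of 18 called negative against strain means of Lep, and their mean change had r = 0.57 with Safb2 and 0.08 with the mean of the 41 genes. Fat cell expansion markers such as Mest and Npr3 had r = 0.84 with Lep for the change of the list mean and -0.79 with Safb2, and 7 of 9 were called positive against strain means of Lep. Fibroblast and progenitor markers had r = 0.57 with Lep and -0.58 with Safb2, and endothelial markers 0.40 and -0.36. In both lists 7 of 12 were called positive against strain means of Lep. The nuclear RNA Malat1, a speckle component, was lower on high fat in 35 strains, by 0.20 ± 0.14, with r = -0.48 against Lep. The part of these lists in the results was not tested. With the B cell, muscle and keratinocyte covariates, 5 members were called negative against strain means of Lep, among 2998 of 38826 genes called negative. Without covariates it was 6 members among 1809 genes. T cell, macrophage, expansion, fibroblast and endothelial markers were not among the covariates.

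Outside the list, the change of 13689 named genes with a mean level of at least 8 was compared with the mean change of the 41 over 38 strains. At the most similar end, Hnrnpu and Ccnl1, a cyclin of the splicing machinery, had r = 0.91 each, and Snrnp48 of the minor spliceosome, Hnrnph3 and Cpsf6, a cleavage factor, had 0.90 each. Eif4a2, a translation factor, Rbm12b1 and Mdm4, a regulator of p53, had 0.91, 0.91 and 0.90. At the opposite end stood Lgals1 (-0.81), the lectin galectin-1, Col18a1 (-0.80), Hist2h2aa1 (-0.78) and Mxra8 (-0.74). These 4 were higher on high fat, by 0.21 ± 0.42, 0.34 ± 0.28, 0.24 ± 0.29 and 0.23 ± 0.33, and their changes had r of 0.86, 0.76, 0.79 and 0.80 with that of Lep.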

How the data were processed

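Values were deposited by the authors as a score per feature, made with Affymetrix Expression Console and RMA, per the submitters' processing notes, which give no versions. Mean (8) and SD (2) were equal on all 80 arrays over 65770 features, a rescaling that the sources used here do not describe. It makes every value relative to the other features of its array. The values of both deposited files were equal (0 differed). The column named BXD92 was taken for BXD92a by its title. No hybridisation batch is given in the sources used here.

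Features without a symbol (26355) were set aside, and no filter on low values was used. The diet, strain and parent tests were 1 limma fit (limma 3.58.1, R 4.3.3) of the 76 paired arrays with strain and diet. Relations to Lep were limma regressions on change, strain mean or single-diet values. P-values were adjusted by Benjamini-Hochberg over all genes, with a threshold of 0.05. The pairing is by strain label. Correlations used numpy 2.4.6 and scipy 1.17.1. The diet, strain and parent tests and the regressions on Lep change and Lep strain mean were checked on simulated data. The regressions within each diet and the alternatives were not. The design had assumed log-scale values, which a score resembles, so limma was kept.

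Genes named were all members, Lep, the 8 non-members with the highest and the 4 with the lowest r with the members' mean change, and up to 3 genes of other gene lists. Levels shown per sample, Rbm25's second feature and the chow-only strains were picked after values were seen. Members and lists were chosen with earlier results of these data known. Alternatives were quantile normalization, leaving out the lowest 40% of genes, the mean of all features of a symbol, robust regression, tissue covariates, leaving out strains, and no strain block.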

Additional observations from a re-analysis of the deposited data

How the results depend on the processing

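Of 2050 values of single members under these alternatives, 1910 kept their side of the threshold, 48 lost a call, 92 gained one and 0 called values changed sign. With robust regression left aside, 1682 of 1763 kept it. Quantile normalization left 2 members called higher on high fat, and robust regression 7. The strain effect was called in 1 member with the mean over all features, 0 with tissue covariates, 4 without BXD63 and BXD55, 0 in BXD strains only and 38 with robust regression, which called 33470 genes in all where each strain had 2 arrays. The parental difference was called in 0 members with tissue covariates (1896 genes in all, against 4539) and 8 with robust regression (13012 genes). Tissue covariates left 6 members negative against Lep on chow and 3826 genes in all, against 6015. On high fat, 0 members were negative without BXD63 and BXD55 (692 genes in all, against 7196) and 2810 genes were called with tissue covariates. Over all genes, the relation of change to Lep change was called in 3315 genes with tissue covariates and 2932 without the 2 strains, against 6353. BXD strains only gave 1949 genes for the strain effect, against 4035, and leaving out the lowest 40% gave 14062 for diet, against 23752, with fewer genes tested. Other causes were not tested.

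Leaving out each strain in turn was an alternative chosen after seeing the data. It gave 24 to 27 members lower and 4 to 5 higher on high fat, and 0 to 6 for strain. For the parents it gave 1, with only BXD strains left out. Negative relations were called in 13 to 23 members for Lep change and 4 to 6 for strain means. Within diets they were called in 12 to 20 on chow and 0 to 9 on high fat. The mean change of the 41 genes lay between -0.10 and -0.08, and its r with Lep change between -0.65 and -0.55. Without the replicate block of strain, 24 members were called lower and 4 higher. With all 80 arrays and no replicate block, 25 were lower and 5 higher.

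The number of strains and the single pool per strain and diet limit the precision. Lep lies near the top of the scale, and signal over background was not in the files used.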

Other observations

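The 4 strains with chow arrays only entered no diet comparison. BXD56 had the lowest Lep of all chow pools, at 11.74, and its values were 12.76 for Rsrp1, 10.89 for Akap8l, 10.27 for Safb2 and 11.19 for Luc7l3. BXD92a had a Lep value of 14.75 and lower values of these genes, at 12.39 for Rsrp1, 10.49 for Akap8l and 9.88 for Safb2, the lowest Safb2 value of the 42 chow pools. The mean of the 41 genes was 11.28 in BXD56, 11.26 in BXD60, 11.13 in BXD92a and 11.09 in BXD96.

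Rbm25 had a second feature on the array, and the 2 features differed in their change with diet. The feature used here changed by -0.14 ± 0.21 and was lower in 28 strains, while the other changed by -0.01 ± 0.32 and was lower in 18. Their r with the change of Lep was -0.34 and -0.32.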
